A study of Mus musculus with 6 samples.

Results

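The serpins are a family of protease inhibitors, and 54 of the 22180 mouse genes measured here belong to it by name: all genes whose symbol is Serpin, a clade letter from a to i and a number. They fell into 20 genes of clade a, 25 of clade b, 2 each of clades f and i, and 1 each of clades c, d, e, g and h. RNA came from mouse embryonic stem cells (ESCs) that lack both copies of Dgcr8 (Dgcr8-/-), so that all 6 samples, controls included, could not make canonical miRNAs. The control group has 3 samples with a control hairpin (shctrl), and the other group has 3 samples labelled sh-miR-302, a hairpin for miR-302, which the source label describes as mimics of this miRNA. Per the design text, each group's samples were biologically independent. The labels do not say how many cell lines or clones stood behind them, and neither the dose nor the duration of miR-302 expression is stated. Values are log2 expression levels on single-colour arrays, and a difference of 1 is a 2-fold change.

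Most serpins trap their protease in a suicide reaction: the protease cuts an exposed reactive loop, the serpin changes shape, and both proteins stay covalently bound. Genes of the clades other than b mostly encode secreted proteins that control blood clotting, complement, fibrinolysis and tissue remodelling. Clade b proteins lack a classical signal peptide and mostly act inside cells, where they protect against leaked granule and lysosomal proteases. Some serpins inhibit nothing and serve as hormone carriers, chaperones or growth factors. In rodents several human genes correspond to groups of tandem copies, among them Serpina1, Serpina3, Serpinb1, Serpinb3, Serpinb6 and Serpinb9.

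The miRNA supplied to these cells is shown because it defines the comparison. Mature 3′ strands of the miR-302 family from RefSeq (GRCm38.p6) are printed 5′ to 3′, with bases 2 to 8, the seed that pairs with target transcripts, in capitals. The labels do not name the family member that the hairpin encodes.
mmu-miR-302b-3p: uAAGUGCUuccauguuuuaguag
mmu-miR-302d-3p: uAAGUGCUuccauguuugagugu
mmu-miR-302c-3p: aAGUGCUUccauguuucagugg
The strands of miR-302b and miR-302d share 1 seed, and that of miR-302c is listed with a start that leaves out the first base, which moves its bases 2 to 8 along by 1.

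Near-identical copies bear on every value of the tandem groups, since a row of the array may bind RNA of more than the gene it names. Promoter windows (250 bases before to 50 after the start) from RefSeq were on hand for 47 of the 54 genes. Most of such a window lies before the start, so its identity does not show how alike the transcripts are. Which rows may bind RNA of another copy cannot be read from it. Serpinb9d, Serpinb9e, Serpinb9f and Serpinb9g, neighbours among the measured genes of the chromosome 13 cluster, had windows 90.3% to 99.3% identical over their overlap. They are shown because Serpinb9e had the largest difference of the family, and the other 3, which were not called with all arrays, are its closest copies. The windows are on GRCm38.p6 and read 5′ to 3′. Capitals in Serpinb9d, Serpinb9f and Serpinb9g mark bases that differ from Serpinb9e within the overlap, and capitals in Serpinb9e mark bases that differ from at least 1 of the other 3.
Serpinb9e (chr13:33249358-33249657, plus strand): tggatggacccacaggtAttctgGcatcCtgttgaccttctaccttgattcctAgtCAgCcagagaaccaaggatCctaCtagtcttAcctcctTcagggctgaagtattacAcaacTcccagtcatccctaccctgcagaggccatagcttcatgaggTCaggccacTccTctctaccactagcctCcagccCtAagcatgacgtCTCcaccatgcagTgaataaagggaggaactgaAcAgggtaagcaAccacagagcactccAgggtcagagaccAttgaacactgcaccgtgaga
Serpinb9f (chr13:33323827-33324126, plus strand): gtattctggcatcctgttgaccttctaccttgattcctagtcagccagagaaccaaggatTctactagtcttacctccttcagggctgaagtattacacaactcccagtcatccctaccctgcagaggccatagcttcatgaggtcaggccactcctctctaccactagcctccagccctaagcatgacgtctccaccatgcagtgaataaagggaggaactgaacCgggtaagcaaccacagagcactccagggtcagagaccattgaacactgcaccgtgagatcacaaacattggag
Serpinb9g (chr13:33484540-33484839, plus strand): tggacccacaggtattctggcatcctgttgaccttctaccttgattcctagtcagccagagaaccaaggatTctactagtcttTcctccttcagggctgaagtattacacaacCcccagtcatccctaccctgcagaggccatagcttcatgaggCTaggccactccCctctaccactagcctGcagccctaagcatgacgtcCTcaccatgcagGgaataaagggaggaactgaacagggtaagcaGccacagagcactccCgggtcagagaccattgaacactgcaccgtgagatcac
Serpinb9d (chr13:33192705-33193004, plus strand): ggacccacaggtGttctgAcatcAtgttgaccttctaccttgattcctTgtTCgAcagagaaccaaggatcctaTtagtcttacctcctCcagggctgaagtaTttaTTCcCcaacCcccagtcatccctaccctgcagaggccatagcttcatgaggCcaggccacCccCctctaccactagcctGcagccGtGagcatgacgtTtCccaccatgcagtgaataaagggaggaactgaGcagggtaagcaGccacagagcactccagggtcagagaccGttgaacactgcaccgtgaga
Serpinb9f differed from Serpinb9e at 2 of 285 aligned positions, Serpinb9g at 12 of 296 and Serpinb9d at 26 of 300. By contrast, the windows of Serpinb9, Serpinb9b and Serpinb9c were 56.9% to 67.8% identical to each other and to those 4, close to the 54.2% to 68.8% of the 95 pairs of genes from different groups that overlapped over at least 150 positions. The other near-identical windows were those of Serpina1a, Serpina1b, Serpina1c, Serpina1d and Serpina1e, at 91.4% to 97.6%, and of Serpinb3a and Serpinb3c, at 93.6%. The motif TATAAA of the core promoter was in none of the 8 Serpinb9 windows (1 gene has more than 1 start), in 15 of 55 serpin windows and in 13.6% of all 32851 windows. Those 15 windows include Serpinb12, Serpinb2 and Serpina7 at more than 1 start each. A match anywhere in the window was counted, not only at the position of a core promoter. A T-box motif, AGGTGT, was found in 2 of the 8, those of Serpinb9c and Serpinb9d, against 13.7% of all windows. Motifs of 3 further factor families were each found in 1 of the 8, always a window of Serpinb9c. The GATA factor motif, spelled AGATAA, was in 11.2% of all windows. For TEAD factors, which act in trophoblast and in Hippo signalling, the motif GGAATG was in 14.7% of all windows. The AP-2 motif, with 3 free bases in the middle (GCCNNNGGC), was in 16.6%. Both strands were searched, and no motif lies inside another.

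With miR-302, 8 of the 54 serpin genes passed the test (limma, adjusted p under 0.05), 3 higher and 5 lower. Serpinb9e, Serpinb9b and Serpinb5 were higher, and Serpina3i, Serpinb6c, Serpinf1, Serping1 and Serpinh1 were lower. Over all genes tested, 16.4% were called, 7.18% higher and 9.25% lower, and the serpins' 14.8%, 5.56% and 9.26% lie near that background. Their median log2 difference was 0.00, against 0.01 over all genes, and the values of the 2 groups did not overlap in 16 of 54 serpins (29.6%), against 35.8% of all genes. Differences of at least 1 on the log2 scale were measured for 6 of 54 serpins (11.1%) and for 2.55% of all genes. Of these 6, 5 were copies of Serpinb9. The level averaged over all arrays lay below that of the median gene in 45 of the 54, where a low value cannot be told from background, and 9 lay at or above it.

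**Figure D1:**
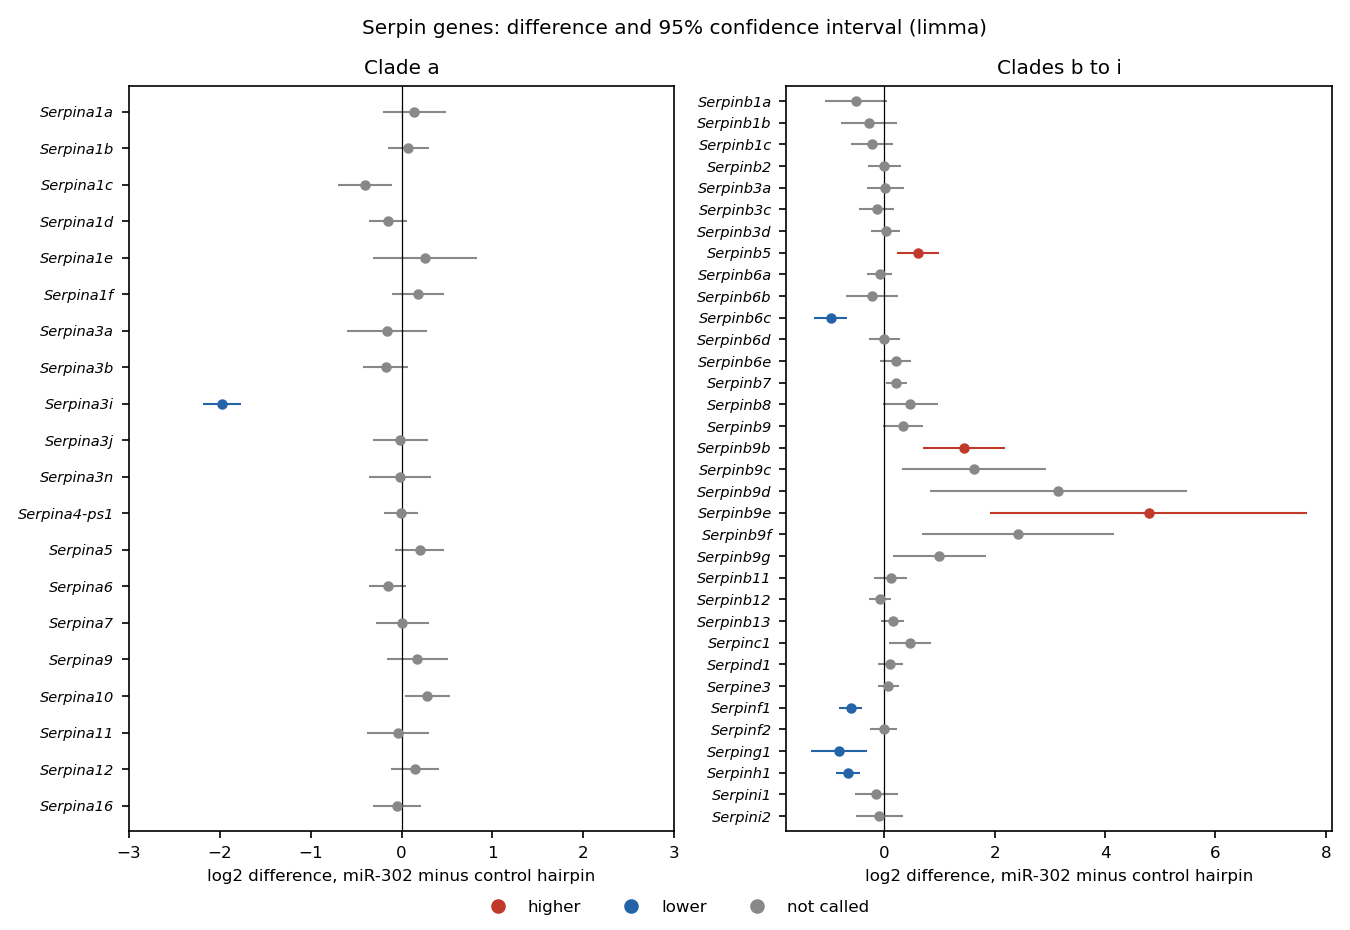
Difference in log2 expression (miR-302 minus control hairpin) for each of the 54 serpin genes, with 95% confidence intervals from limma; clade a is on the left and clades b to i on the right, and colour gives the call at an adjusted p of 0.05. Most genes lie near 0, Serpina3i lies at -1.98, and the copies Serpinb9b to Serpinb9g lie to the right with wide intervals.

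Of the 6 arrays, miR-302 replicate 1 stood apart, and its mean absolute distance from the other arrays of its group was 0.234 log2 units over all genes, against 0.190 for replicates 2 and 3 and 0.146 to 0.152 for the controls. Without it 24.3% of all genes were called, 11.2% higher and 13.1% lower, and the serpins called were 8 higher (14.8%) and 6 lower (11.1%). Without any 1 of the other 5 arrays, 0 or 1 serpins were higher and 4 or 5 lower. Of the 8 genes called with all arrays, the lower genes Serpina3i, Serpinb6c, Serpinf1 and Serpinh1 kept their call in all 6 fits that left out 1 array. The calls of Serpinb9e, Serpinb9b, Serpinb5 and Serping1 were lost in 5 of the 6 and held only without miR-302 replicate 1. ESC markers were high on all arrays: 9 of 10 lay at or above the median gene and none of the 10 was called in either direction (3 had an unadjusted p under 0.05). The log2 levels of these 10 summed to between 106.01 and 106.42 in control cells, to 107.83 for miR-302 replicate 1, and to 104.48 and 104.73 for replicates 2 and 3. Replicate 1 thus lay above every control, and replicates 2 and 3 lay below. Without miR-302 replicate 1, 3 of the 10 ESC markers were lower (13.1% of all genes). Dgcr8, the deleted gene, was not analysed here, as no row names it alone. Fewer cells of a type and less RNA per cell cannot be told apart in such bulk samples.

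Serpinb9 and its copies gave the largest differences of the family. Serpinb9 encodes the intracellular inhibitor of granzyme B, by which cytotoxic lymphocytes shield themselves from their own granules, and the lettered genes are its tandem copies in rodents. All 7 measured members had a positive difference, from 0.33 to 4.79, with a median of 1.63. Of these, 2 were called with all arrays and 6 without miR-302 replicate 1, each of them higher. Over all genes, 7.18% were higher with all arrays and 11.2% without that array.

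Serpinb9e was at 4.15, 4.08 and 3.76 in control replicates 1 to 3 and at 5.65, 10.37 and 10.34 with miR-302. All miR-302 arrays lay above all controls, and replicate 1 lay 4.69 below the lower of the other two. With miR-302 the mean rose to 8.79 ± 2.72 (SD, n = 3), against an SD of 0.21 among the controls, a log2 difference of 4.79 ± 1.21 (SE; limma, adjusted p = 0.0397). The control values lie below the median gene, where a level cannot be told from background, so the measured difference may understate the change and no fold is given. The same holds for Serpinb9c, Serpinb9d, Serpinb9f and Serpinb9g. For Serpinb9e the difference was 6.36 without miR-302 replicate 1 (limma, adjusted p = 3.44e-05), and 3.998 to 4.87 with adjusted p from 0.108 to 0.119 without any 1 of the others.

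Serpinb9b was at 9.50, 9.59 and 9.52 in control cells and at 10.19, 11.38 and 11.37 with miR-302. The groups did not overlap, and the 3 control values spanned 0.09. Its mean went from 9.54 ± 0.05 to 10.98 ± 0.68, a difference of 1.44 ± 0.31 (SE), or 2.72-fold (limma, adjusted p = 0.0234). Leaving out miR-302 replicate 1 gave 1.84 (3.58-fold, adjusted p = 8.37e-05), and leaving out any 1 of the others 1.24 to 1.47 with adjusted p from 0.0731 to 0.0814.

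Serpinb9d, Serpinb9f and Serpinb9c did not pass the test with all arrays. Serpinb9d was at 3.24, 2.80 and 2.80 in control cells and at 3.57, 7.44 and 7.28 with miR-302, a difference of 3.15 ± 0.98 (SE; limma, adjusted p = 0.0753). For Serpinb9f the control values were 5.03, 4.72 and 5.34 and the miR-302 values 5.61, 8.63 and 8.12, a difference of 2.42 ± 0.73 (SE; adjusted p = 0.0692). In both, replicate 1 of miR-302 lay close above the controls and replicates 2 and 3 lay far above. Serpinb9c was at 3.56, 3.93 and 3.32 and at 3.86, 5.87 and 5.97, so that replicate 1 fell within the control range, and its difference was 1.63 ± 0.55 (SE; adjusted p = 0.0940). Without that array the differences were 4.41, 3.35 and 2.32, and all 3 genes were called (limma, adjusted p = 8.65e-05, 0.000503 and 0.000770).

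Serpinb9g and Serpinb9 itself had smaller differences. Serpinb9g was at 2.77, 3.03 and 3.19 in control cells and at 3.58, 4.87 and 3.53 with miR-302. Here replicate 3 was near replicate 1, unlike in the other copies, and the difference of 0.997 ± 0.35 (SE) was not called with all arrays (adjusted p = 0.109) nor in any fit that left out 1 array. Serpinb9 was at 7.06, 6.80 and 6.89 and at 6.95, 7.52 and 7.27. Its groups overlapped, and the difference of 0.33 ± 0.15 (SE; adjusted p = 0.202) passed the test only without miR-302 replicate 1, at 0.48 (limma, adjusted p = 0.0325).

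**Figure D2:**
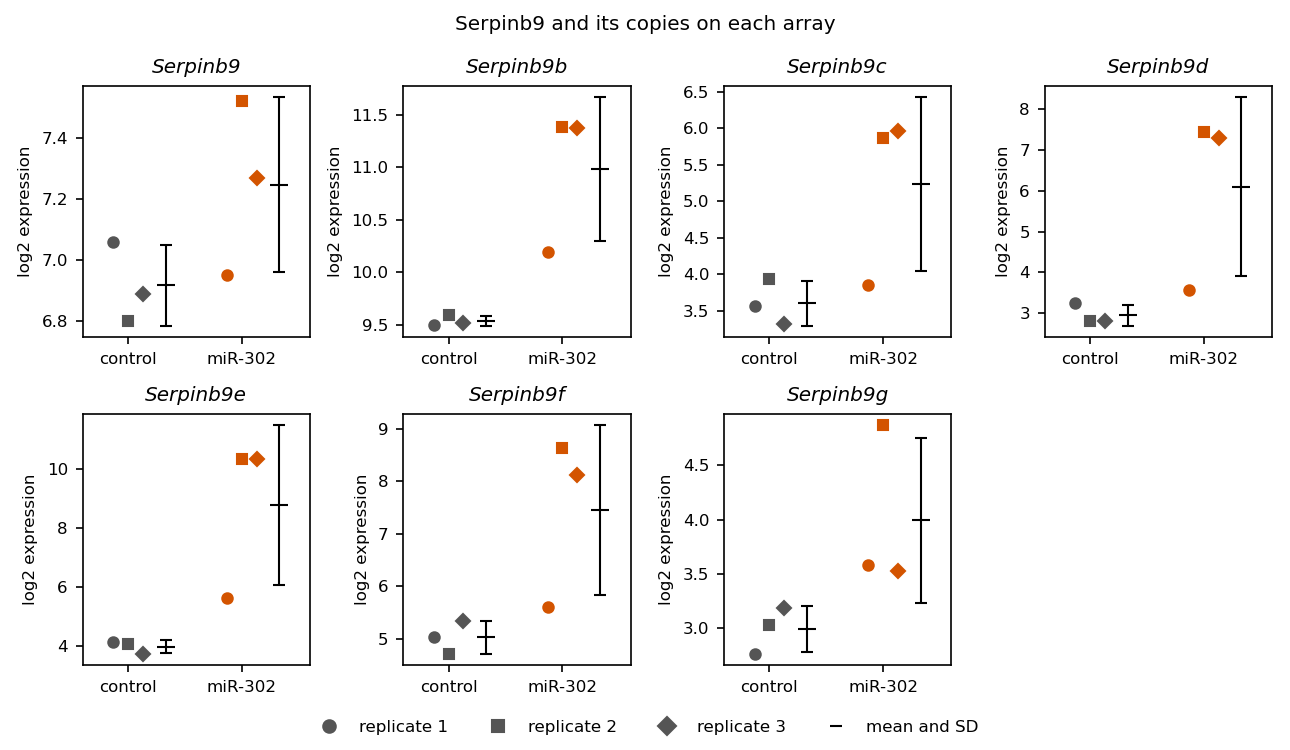
Log2 expression of Serpinb9 and its 6 measured copies on each array; grey points are control hairpin, orange points miR-302, the symbol gives the replicate number, and the bar to the right of each group is its mean with SD (n = 3). The scale differs between panels. In Serpinb9b to Serpinb9f, replicates 2 and 3 of miR-302 lie together and above replicate 1.

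The values of the 4 copies with near-identical promoter windows are set side by side without a comparison of size. Their control values lie at different low levels, where background can compress each difference by its own amount. Serpinb9e and Serpinb9f, whose windows were 99.3% identical, had differences of 4.79 and 2.42, and Serpinb9g, at 95.9% identity with Serpinb9e, of 0.997. Serpinb9b, with a window 58.2% identical to that of Serpinb9e, was higher as well. Levels of different rows cannot be set against each other on arrays, and whether a row's probes also bind RNA of another copy was not tested, since probe sequences were not used here. The 2 single-gene rows of Serpinb9b gave 1.44 and 0.71. A match of letters describes the windows and no binding was measured.

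**Figure D3:**
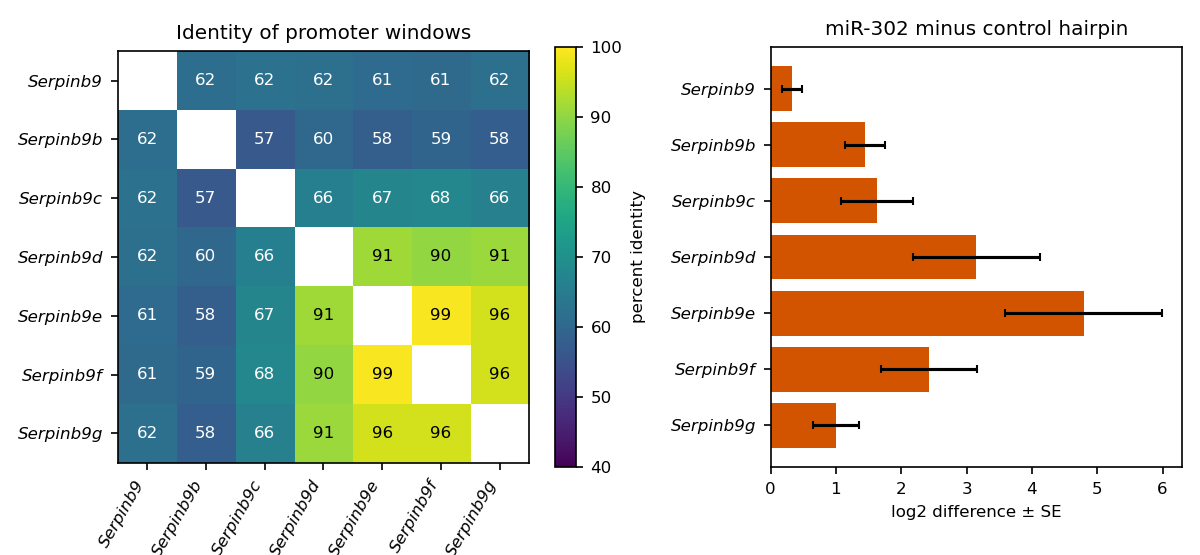
Left, percent identity of the promoter windows of each pair of Serpinb9 genes over their overlap; right, log2 difference between miR-302 and control hairpin with its SE from limma. The block of Serpinb9d to Serpinb9g has identities of 90.3% to 99.3%, and its differences range from 0.997 to 4.79.

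Position in the cluster was set beside these values. The chromosome 13 cluster runs from Serpinb1a to Serpinb6a with 15 measured serpin genes and no other measured single-gene row between them. Only genes with a single-gene row were ordered, by the RefSeq annotation, so genes that were not measured may lie between them. In this order Serpinb9c to Serpinb9g follow one another, with differences of 1.63, 3.15, 4.79, 2.42 and 0.997. Serpinb1b, between Serpinb9b and Serpinb9c, had a difference of -0.28 ± 0.21 (SE; limma, adjusted p = 0.438). The next measured gene on the far side, Serpinb6d, had 0.00 ± 0.12 (SE). Of the 3 measured genes on each side of the cluster none was higher. Gmds and Nqo2 were lower, by 0.36 and 0.99 on the log2 scale (limma, adjusted p = 0.0328 and 0.00361), and Mylk4, Wrnip1, Bphl and Tubb2a were not called.

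**Figure D4:**
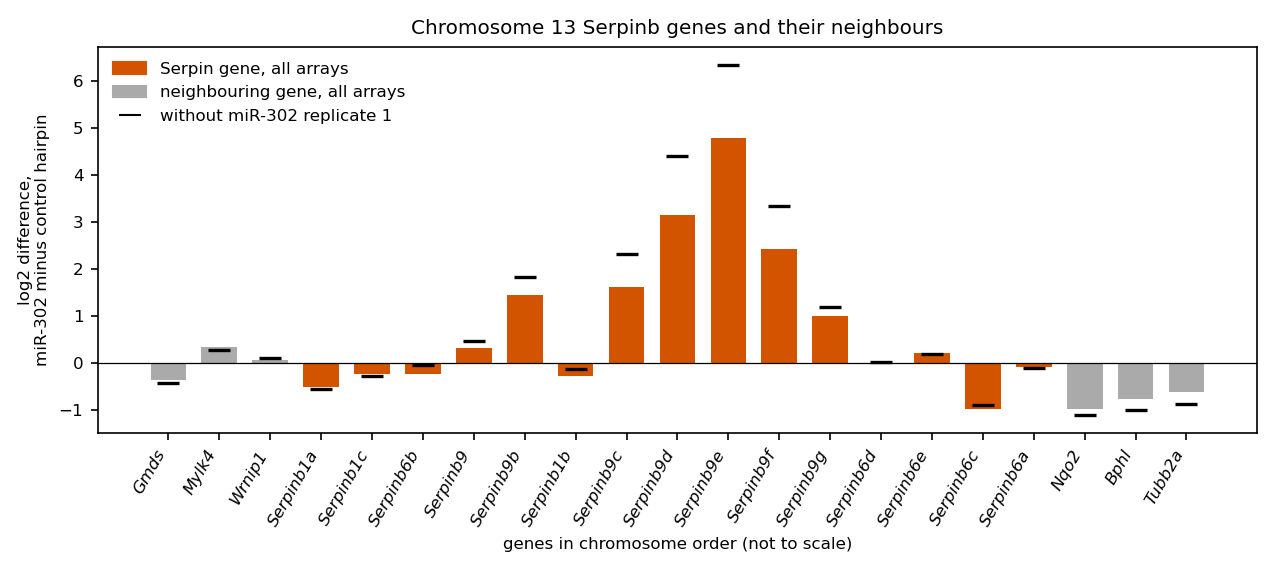
Log2 difference between miR-302 and control hairpin along the chromosome 13 cluster, in gene order and not to scale; orange bars are serpin genes, grey bars the 3 nearest measured genes on each side, and black ticks the difference without miR-302 replicate 1. Bars are high from Serpinb9b to Serpinb9g apart from Serpinb1b, and flanking genes lie between -0.99 and 0.34.

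Markers of other cell types were read on the same arrays. Of 10 measured trophoblast markers 7 were higher (7.18% of all genes) and none lower (9.25%). Their log2 levels summed to between 61.66 and 62.96 in control cells, to 73.21 for replicate 1 of miR-302, and to 79.85 and 79.83 for its replicates 2 and 3. In Serpinb9b, Serpinb9d, Serpinb9e and Serpinb9f, too, replicate 1 lay between the controls and the other miR-302 arrays, and the part of these markers in the result was not tested. With miR-302 replicate 1 left out all 10 were higher (11.2% of all genes), and with another array left out 6 or 7. Krt8, a keratin gene of this list, was at 8.10 to 8.29 in control cells and at 10.43, 12.07 and 12.11 with miR-302 (limma, adjusted p = 0.00439). Tpbpa (3.87 to 4.08 and 4.01 to 4.43) and Elf5 (5.11 to 5.15 and 4.99 to 5.88) lay below the median gene and were not called. Parietal endoderm markers were higher in 2 of 9 (sum 66.34 to 66.73 in control cells and 70.57 to 72.74 with miR-302), and in 5 without miR-302 replicate 1. Visceral endoderm markers were higher in 2 and lower in 2 of 11 (61.51 to 62.14 and 62.08 to 62.92), and fibroblast markers higher in 1 and lower in 1 of 9 (47.80 to 48.38 and 48.82 to 50.13). None of 6 macrophage markers was called by limma (1 had an unadjusted p under 0.05; 30.87 to 31.35 and 31.48 to 32.36).

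The other 18 clade b genes held 1 higher and 1 lower gene (11.1% called, against 16.4% of all genes). Serpinb5 encodes maspin, a serpin of epithelial cells that does not act as a protease inhibitor. It was at 4.23, 3.84 and 4.16 in control cells and at 4.38, 4.78 and 4.90 with miR-302. The groups did not overlap, but only 0.15 separated the highest control from the lowest miR-302 value. The difference was 0.61 ± 0.16 (SE; limma, adjusted p = 0.0480), at a level below that of the median gene, so no fold is given. Without miR-302 replicate 1 it was 0.76 (adjusted p = 0.0110), and without any 1 of the others 0.49 to 0.69 with adjusted p from 0.0860 to 0.139.

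Serpinb6c is a rodent copy of Serpinb6, an intracellular inhibitor of cathepsin G and trypsin-like proteases. It was at 5.91, 6.18 and 5.82 in control cells and at 4.85, 5.17 and 4.97 with miR-302. Every miR-302 array lay below every control, by at least 0.65. The mean fell from 5.97 ± 0.19 (SD, n = 3) to 4.997 ± 0.16, a difference of -0.97 ± 0.13 (SE; limma, adjusted p = 0.00431), with both groups below the median gene. The other measured Serpinb6 genes were not called: Serpinb6a had -0.09 ± 0.09 (SE), Serpinb6b -0.23 ± 0.20, Serpinb6d 0.00 ± 0.12 and Serpinb6e 0.21 ± 0.12. Of the 3 Serpinb1 genes, inhibitors of neutrophil elastase, none was called, with differences from -0.51 to -0.22 and wide spread in the controls (Serpinb1a at 5.09, 5.77 and 4.85).

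Beside these, the clade b genes of the chromosome 1 cluster gave little difference. Serpinb8, an inhibitor of the convertase furin, was at 3.20, 3.35 and 3.14 and at 3.30, 4.17 and 3.62. Its difference of 0.47 ± 0.21 (SE; limma, adjusted p = 0.191) passed the test only without miR-302 replicate 1 (0.67, adjusted p = 0.0405). The 8 remaining genes of that cluster, Serpinb2, Serpinb3a, Serpinb3c, Serpinb3d, Serpinb7, Serpinb11, Serpinb12 and Serpinb13, had differences from -0.14 to 0.22, none of them called, at levels below the median gene.

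In clade a, 1 of 20 genes was called (5%, against 16.4% of all genes). Serpina3i belongs to the group of rodent copies of antichymotrypsin, a secreted inhibitor of chymotrypsin-like proteases. It was at 6.87, 6.86 and 6.67 in control cells and at 4.83, 4.90 and 4.74 with miR-302. The groups were separated by 1.77, and the values spanned 0.20 in control cells and 0.16 with miR-302. The mean fell from 6.80 ± 0.11 (SD, n = 3) to 4.82 ± 0.08, a difference of -1.98 ± 0.09 (SE; limma, adjusted p = 0.000127). The miR-302 values lie below the median gene, so this difference too may understate the change. Its call held in every fit that left out 1 array, with differences from -2.04 to -1.94. This was the lowest difference of the family.

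None of the other 4 measured members of the Serpina3 group was called. Serpina3n was at 4.87, 5.23 and 4.96 and at 5.14, 4.75 and 5.13, a difference of -0.01 ± 0.14 (SE), and Serpina3a, Serpina3b and Serpina3j had differences from -0.17 to -0.01. Where promoter windows could be aligned, Serpina3i was 70.4% identical to Serpina3b and 69.1% to Serpina3n, well below the copies of Serpinb9d to Serpinb9g. The 3 measured genes on each side of the chromosome 12 cluster were not called.

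The 6 Serpina1 genes, copies of the gene of alpha-1-antitrypsin, the main plasma inhibitor of neutrophil elastase, had differences from -0.40 to 0.26, and none was called with all arrays. Serpina1c was at 4.11, 4.59 and 4.35 in control cells and at 3.89, 3.95 and 4.0 with miR-302, with no overlap, a difference of -0.40 ± 0.13 (SE; limma, adjusted p = 0.0752). It passed the test only without control replicate 1 (-0.52, adjusted p = 0.0420). Of its 4 near-identical copies, Serpina1a had a difference of 0.14 ± 0.15, Serpina1b 0.07 ± 0.10, Serpina1d -0.15 ± 0.09 and Serpina1e 0.26 ± 0.24 (SE), none of them called. The other 9 clade a genes, which include the corticosteroid carrier gene Serpina6, the thyroxine carrier gene Serpina7 and Serpina10, an inhibitor of clotting factor X, had differences from -0.15 to 0.28. All 20 clade a genes lay below the median gene.

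Of the 9 genes of clades c to i, 3 were lower (9.25% of all genes) and none higher (7.18%). Serpinh1 encodes Hsp47, a chaperone of the endoplasmic reticulum that binds procollagen and inhibits no protease. It was at 9.55, 9.50 and 9.45 in control cells and at 9.01, 8.73 and 8.81 with miR-302. The highest miR-302 value lay 0.44 below the lowest control. Its mean fell from 9.50 ± 0.05 (SD, n = 3) to 8.85 ± 0.14, a difference of -0.65 ± 0.09 (SE), 1.57-fold lower (limma, adjusted p = 0.00574), and from -0.73 to -0.59 in the fits that left out 1 array.

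Serping1 encodes C1 inhibitor, which controls the first complement proteases and plasma kallikrein. It was at 9.40, 9.42 and 9.30 in control cells and at 9.07, 8.37 and 8.22 with miR-302. Replicate 1 lay between the controls and the other 2 arrays of its group. This was so in Serpinb9b, Serpinb9d, Serpinb9e and Serpinb9f too, but in the opposite direction. The difference was -0.82 ± 0.21 (SE), 1.77-fold lower (limma, adjusted p = 0.0430). It was -1.08 without miR-302 replicate 1 (adjusted p = 0.000656), and -0.86 to -0.65 with adjusted p from 0.107 to 0.128 without any 1 of the others.

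Serpinf1 encodes pigment epithelium-derived factor, a secreted protein that limits blood vessel growth and is not a protease inhibitor. It was at 7.0, 6.88 and 6.95 in control cells and at 6.24, 6.28 and 6.48 with miR-302, again without overlap. The mean fell from 6.94 ± 0.06 (SD, n = 3) to 6.33 ± 0.13, a difference of -0.61 ± 0.09 (SE), 1.53-fold lower (limma, adjusted p = 0.00622). Serpinf2, which encodes the plasmin inhibitor alpha-2-antiplasmin and neighbours Serpinf1, had a difference of -0.01 ± 0.11 (SE).

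**Figure D5:**
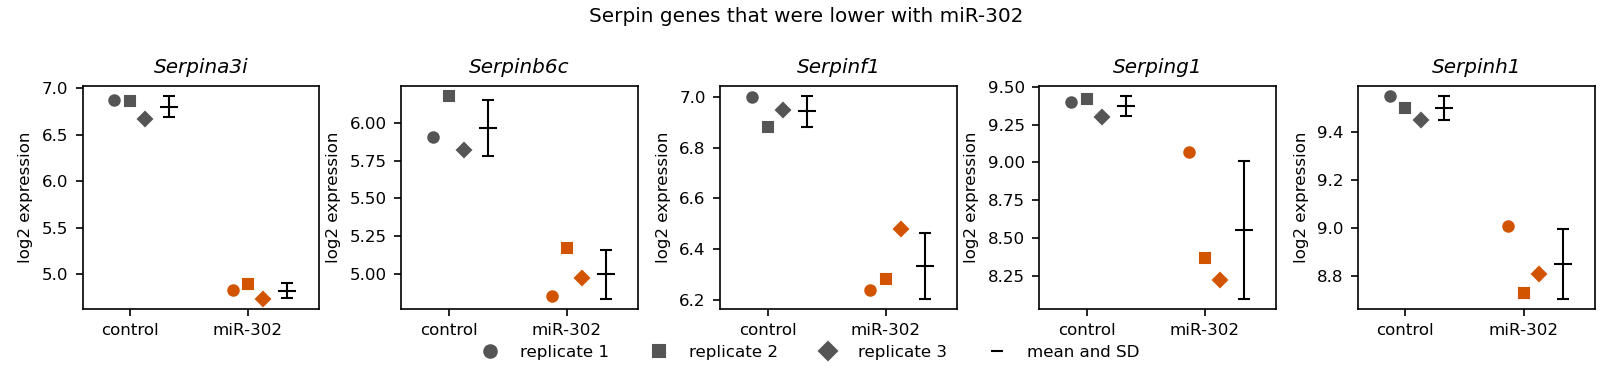
Log2 expression of the 5 serpin genes that were lower with miR-302, on each array; grey points are control hairpin, orange points miR-302, the symbol gives the replicate number, and the bar to the right of each group is its mean with SD (n = 3). The scale differs between panels. The groups do not overlap in any panel, and in Serping1 replicate 1 of miR-302 lies closest to the controls.

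The remaining 6 genes of these clades were not called with all arrays. Serpinc1, the gene of antithrombin, was at 4.16, 3.90 and 4.49 and at 4.73, 4.76 and 4.48, a difference of 0.47 ± 0.16 (SE; limma, adjusted p = 0.0953) that passed the test only without control replicate 3 (0.63, adjusted p = 0.0480). Serpind1, the gene of heparin cofactor II, was at 4.55, 4.54 and 4.48 and at 4.73, 4.71 and 4.46, a difference of 0.11 ± 0.09 (SE; adjusted p = 0.486). The groups overlapped in Serpinc1 and Serpind1, and also in Serpine3, the 1 measured gene of its clade. Serpine3 was at 3.84, 3.76 and 3.89 and at 3.81, 3.90 and 4.0, a difference of 0.07 ± 0.08 (SE; adjusted p = 0.603). Serpini1, the gene of neuroserpin, an inhibitor of tissue plasminogen activator in neurons, was at 6.25, 6.39 and 6.32 and at 6.56, 6.01 and 5.96. Its difference of -0.14 ± 0.16 (SE; adjusted p = 0.620) passed the test only without miR-302 replicate 1 (-0.34, adjusted p = 0.0220), where the gene was higher than in any control. Serpini2 had -0.09 ± 0.18 (SE).

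Proteases with their cofactors and receptors, partners of individual serpins, and 33 protease inhibitors outside the serpin family were counted in 6 lists with 127 measured genes. Of these 15 were higher and 14 lower (22.8% called, against 16.4% of all genes), with a median difference of 0.01. Leaving out miR-302 replicate 1 gave counts of 21 and 20, where 11.2% of all genes were higher and 13.1% lower. Leaving out another array gave 8 or 9 higher and 6 to 8 lower.

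Among 24 granule proteases and cathepsins, 1 was higher and 1 lower (8.33% called, against 16.4% of all genes). The list includes targets of many clade b serpins. The lysosomal protease gene Ctsd rose by 0.32 ± 0.08 (SE; limma, adjusted p = 0.0358) and Ctsz changed by -0.32 ± 0.07. Gzmb, the gene of granzyme B, was at 3.87, 3.39 and 3.33 and at 3.86, 3.99 and 3.78, low values that cannot be told from background (adjusted p = 0.182). When miR-302 replicate 1 was left out 2 of the list were higher and 1 lower, and for the other arrays 0 to 2 were higher and 0 lower. Of 21 genes of plasminogen activation and cell-surface serine proteases, 3 were higher and 1 lower (19.0% called, against 16.4% of all genes). Klk8, a kallikrein gene, Plau, the gene of the urokinase plasminogen activator, and its receptor gene Plaur rose by 0.58 ± 0.08, 0.57 ± 0.12 and 0.52 ± 0.13 (SE). The dipeptidyl peptidase gene Dpp4 changed by -0.64 ± 0.09 (SE). Klk8 and Plau lay below the median gene, where a low value cannot be told from background. Higher genes numbered 6 with miR-302 replicate 1 left out, and 1 with another array left out.

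In the list of clotting and complement proteases and their cofactors, 4 of 18 were higher and 1 lower (27.8% called, against 16.4% of all genes). F3, which encodes tissue factor, the trigger of clotting, was at 8.11, 8.21 and 8.08 in control cells and at 8.86, 10.21 and 10.33 with miR-302. Replicate 1 again lay between the controls and the other 2 arrays. The difference was 1.67 ± 0.37 (SE; limma, adjusted p = 0.0256). The thrombin receptor gene F2r rose by 0.59 ± 0.07 and the cofactor gene F5 by 0.62 ± 0.12 (SE), while F2, the prothrombin gene, changed by -0.73 ± 0.13. In this list 16 of the 18 genes lay below the median gene, where a low value cannot be told from background. Higher genes numbered 4 when miR-302 replicate 1 was left out, and 1 or 2 when another array was.

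Of 13 binding partners and clearance receptors of serpins, 3 were higher and 5 lower (61.5% called, against 16.4% of all genes). In this list 11 of the 13 genes lay at or above the median gene, and the share called among all genes of that level is not given here. Sorl1, a sorting receptor of the low density lipoprotein receptor family, changed by -1.28 ± 0.10 (SE; limma, adjusted p = 0.000849). Lrp1, the receptor that clears many serpin and protease complexes, was at 9.07, 8.90 and 8.98 and at 8.52, 7.45 and 7.36, a difference of -1.21 ± 0.29 (SE; adjusted p = 0.0357). The related receptor gene Lrp2 rose by 0.84 ± 0.10, and the proteoglycan genes Sdc4 and Hspg2 rose by 0.54 ± 0.07 and 0.59 ± 0.07 (SE). The proteoglycan genes Sdc1 and Gpc3 went the other way, by -0.62 ± 0.08 and -1.23 ± 0.22 (SE; limma, adjusted p = 0.00424 and 0.0125). Pnpla2, whose product binds the Serpinf1 protein, changed by -0.55 ± 0.14 (SE; adjusted p = 0.0379). Lower counts ranged from 2 to 5 in the fits that left out 1 array, with 5 without miR-302 replicate 1.

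Of 18 partners of Serpinh1 in collagen folding, 1 was higher and 2 lower (16.7% called, near the 16.4% of all genes). Crtap, a subunit of the prolyl 3-hydroxylase complex, changed by -0.92 ± 0.09 (SE; limma, adjusted p = 0.00202), the disulfide isomerase gene Pdia3 by -0.46 ± 0.11, and the prolyl 4-hydroxylase gene P4ha2 by 0.36 ± 0.09. Col4a1, a collagen client, was at 6.86, 6.70 and 6.65 and at 7.03, 7.78 and 8.09, a difference of 0.90 ± 0.25 (SE) that was not called (adjusted p = 0.0570). The counts were 4 and 5 when miR-302 replicate 1 was left out, and 0 and 1 for each of the other arrays. Of 33 inhibitors outside the serpin family, 3 were higher and 4 lower (21.2% called, against 16.4% of all genes). Timp3, an inhibitor of metalloproteases, rose by 1.49 ± 0.13 (SE; limma, adjusted p = 0.00133) and Tfpi, the inhibitor of tissue factor, by 0.65 ± 0.08, whereas Timp1 and Wfdc2 changed by -0.47 ± 0.08 and -0.62 ± 0.11 (SE). With miR-302 replicate 1 left out 2 of these were higher and 7 lower, and with another array left out 2 or 3 and 1 or 2.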

How the data were processed

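RNA of 6 samples was measured on single-colour arrays. The authors deposited log2 expression values made with RMA (background correction, quantile normalization, probe summary), per the submitters' processing notes; RMA gives base 2 by default, and no label states the base. The RMA version and the genome build are not stated. RMA makes arrays alike (medians 5.60 to 5.62), so a shift of all genes cannot be seen. Groups and replicate numbers came from the titles. The design text calls the samples of each group biologically independent, but the labels name no separate cultures. The p-values therefore set the difference between groups against the spread between these samples.

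Of 33649 rows, 23521 name 1 gene in the platform annotation. The row with the highest mean stood for each of 22180 genes. In all, 57 rows name a serpin: 55 alone, for 54 genes, and 2 with another gene (not used). The RefSeq gene table lists 69 symbols of this form, and the other 15 were not analysed here. The test was limma 3.58.1 under R 4.3.3 (two-sided, lmFit with eBayes, Benjamini-Hochberg over all genes, threshold 0.05), a fit checked on simulated data. SE and 95% intervals are limma's. Members called, members not called with a difference of at least 1, and the highest row of each clade are given in full, and of each list up to 4 genes with the smallest p. Genes named beyond this were chosen after their values were seen. Members and lists were chosen with earlier results of these data known.

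Near-identical copies were to be found from protein sequences, which were not used here, so promoter windows were aligned in their place (free ends, Biopython 1.88). Copies count as near-identical at 80% identity or more over at least 150 positions, which describes the windows and not the transcripts. Figures were drawn with matplotlib 3.10.9.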

Additional observations from a re-analysis of the deposited data

Results flagged for a closer look

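A second single-gene row of Serpinb9b, which the comparisons do not use, also lay above its controls on every miR-302 array. It was at 4.93, 4.75 and 4.69 in control cells and at 5.06, 5.77 and 5.66 with miR-302, a log2 difference of 0.71 against 1.44 in the row used.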

How the results depend on the processing

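With the fits that left out 1 array, serpins called ranged from 0 to 8 higher and 4 to 6 lower, all genes from 685 to 2484 higher and 1043 to 2911 lower, and genes of the 6 lists from 8 to 21 higher and 6 to 20 lower. The highest counts all came without miR-302 replicate 1. An unmoderated test per gene called 0 serpins higher and 4 lower, 998 and 1343 of all genes, and 9 and 10 genes of the lists. At least a 1.5-fold change was reached by 636 higher and 925 lower of all genes and by 7 and 8 of the lists. Restricted to genes whose mean lay at or above the median level, the test kept 9 of the 54 serpins and called 3 lower. Without the share of all genes called in that fit, which is not given here, this count says nothing about serpins in particular. Serpinb9e and Serpinb9f passed that filter only through their miR-302 arrays, so its count of higher serpins is not read. Samples of the same number did not deviate together (r = 0.019, 0.017 and 0.008 over all genes). With the replicate number as a block, 1 serpin was higher and 4 lower, 964 and 1329 of all genes, and 10 and 9 of the lists. Serpinb5 was the only called serpin to lose its call under quantile normalization (adjusted p = 0.0567, limma). No called serpin changed direction under any alternative, and the causes of the other shifts were not tested. Centring arrays, quantile normalization, the mean of a gene's rows, every row on its own, and an intensity trend with a robust prior kept every count of serpins within 1 of the main one. The number of arrays limits the precision, and low rows cannot be told from background.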
